A study of Mus musculus with 4 samples.

Results

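Ribosomal protein genes, the genes for the protein components of the cytosolic ribosome, were described here by the Fos signal around them in mouse colonic epithelium. The set held 87 of the 21631 protein-coding genes that the gene table places on an autosome or the X chromosome, chosen by symbol as Rpl or Rps followed by a digit. S6 kinase genes, 10 in number, were left out. The 87 comprised 73 core ribosomal protein genes (43 of the large and 30 of the small subunit) and 14 others, which are paralogs, retrogenes, copies named as pseudogenes but listed as protein-coding, and the gene of a binding protein. Fos was profiled by CUT&Tag, in which an antibody guides the transposase Tn5 to cut and tag nearby DNA. There were 2 libraries from wild-type (WT) mice recovered from colitis and 2 from WT healthy controls, all of batch DSS21. Dextran sodium sulfate (DSS), a chemical that damages the colon lining, had been given to recovered mice at 1 to 1.5% for 7 days, followed by 10 days without it, 3 times over, and tissue was taken 22 days later. The mucosa was scraped from colons held in EDTA. The labels give no age, sex or strain, and do not say whether animals were pooled. The deposited values were 1 peak list for the whole series, so recovered and healthy colon could not be compared, no value has a replicate error, and fewer cells with signal cannot be told apart from less signal per cell.

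Ribosomal proteins assemble with ribosomal RNA into a large and a small subunit that together translate messenger RNA. Their genes are short, highly transcribed in most cells, and known for starts within a pyrimidine tract that becomes the 5′ terminal oligopyrimidine motif of the RNA, through which mTORC1 controls translation. Fos is a subunit of AP-1, a family of factors induced by growth signals and injury that binds the letters TGANTCA. No untargeted antibody library was used here, so the share of each summit that open chromatin gives without Fos was not measured.

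Promoter sequences of 67 of the 87 genes were taken from RefSeq (build GRCm38.p6, the assembly that mm10 names). Shown first are 3 core genes whose annotated start is a C followed by at least 4 pyrimidines, as at 14 of the 67 genes, with the whole pyrimidine tract in capitals. Each runs from 100 bases before the start through the first 20 transcribed bases: Rps6 (chr4:86857348-86857467, minus strand), Rpl15 (chr14:18270967-18271086, minus strand) and Rpl28 (chr7:4792865-4792984, plus strand).
Rps6: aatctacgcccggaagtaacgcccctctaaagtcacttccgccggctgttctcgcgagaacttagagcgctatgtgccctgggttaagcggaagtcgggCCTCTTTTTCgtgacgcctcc
Rpl15: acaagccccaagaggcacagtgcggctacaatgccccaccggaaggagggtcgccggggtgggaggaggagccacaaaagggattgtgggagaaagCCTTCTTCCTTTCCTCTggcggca
Rpl28: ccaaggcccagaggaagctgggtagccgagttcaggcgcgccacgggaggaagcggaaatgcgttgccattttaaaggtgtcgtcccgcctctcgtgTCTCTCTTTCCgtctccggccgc

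The second set shows the ETS letters CCGGAAG (either strand), in capitals, at Rps21 (chr2:180257279-180257398, plus strand), which had the strongest boundary summit of the family, at Rpl31 (chr1:39367751-39367870, plus strand), and at an annotated start inside Rps27l (chr9:66945986-66946105, plus strand). It ends with Rpl10l (chr12:66284382-66284501, minus strand), a copy with no Fos summit in its whole window and none of these letters in this stretch. Another copy, Rpl39l (not shown), held the letters but had no summit at its boundary or start.
Rps21: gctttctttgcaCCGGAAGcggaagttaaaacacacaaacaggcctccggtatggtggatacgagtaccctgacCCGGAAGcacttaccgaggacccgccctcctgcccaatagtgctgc
Rpl31: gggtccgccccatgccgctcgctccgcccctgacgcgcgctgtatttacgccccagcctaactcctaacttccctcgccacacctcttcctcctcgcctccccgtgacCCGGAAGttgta
Rps27l: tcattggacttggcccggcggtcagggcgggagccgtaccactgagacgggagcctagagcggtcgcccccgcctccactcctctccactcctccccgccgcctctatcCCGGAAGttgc
Rpl10l: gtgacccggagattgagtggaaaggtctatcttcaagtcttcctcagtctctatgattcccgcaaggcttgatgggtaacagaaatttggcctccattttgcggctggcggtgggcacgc

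A boundary summit, meaning a summit within 1000 bp of either end of a gene, was present at 81 of the 87 genes (93.1%), where the share over all protein-coding genes was 62%. Among the core genes 72 of 73 had such a summit. Ribosomal protein genes are short, with a median span of 3164 bp against 17329 bp over all protein-coding genes. Of genes between 374 bp, the length of the shortest member, and 10000 bp, 48.4% had a boundary summit. The comparison gene set includes genes silent in the colon, and activity was not matched. More than 1 boundary summit was found at 72 of 87 members, against 47.5% of protein-coding genes. At 66 of the 81 genes the region with the strongest boundary summit held 2 or more summits, a share not counted over all genes. The median width of that region was 1243 bp (quartiles 973 and 1648 bp), close to the 1299 bp over all protein-coding genes with a boundary summit.

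Boundary strength was even rather than extreme. The median of the strongest boundary fold enrichment, the authors' ratio over background, was 32.2 over the 81 genes (95% order-statistic interval 26.7 to 38.5), against 27.4 (26.7 to 28.1) over the 13405 protein-coding genes with a boundary summit. The quartiles were 20.0 and 53.4 for ribosomal protein genes and 11.3 and 55.6 for all genes. A fold of at least 10 was reached by 75 of 87 members, where 48.5% of protein-coding genes reached it, and a fold of at least 100 by 6 members, where 5.94% did. Ranked among all genes with a boundary summit, 8 members lay below the lower quartile, 25 between it and the median, 28 between the median and the upper quartile and 20 above that. Few members had weak boundaries, and the share with very strong boundaries was close to that of all genes.

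**Figure D1:**
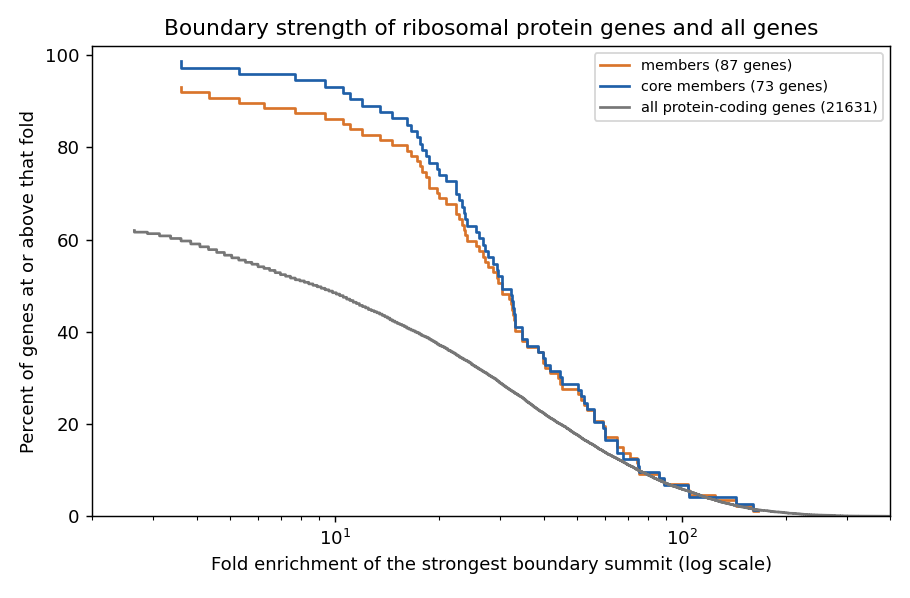
Percent of genes (vertical axis) whose strongest boundary summit reached a given fold enrichment (horizontal log axis), for the 87 members, the 73 core members and all 21631 protein-coding genes. The member lines stay high up to a fold of about 10, which 75 of 87 members reached, and meet the line of all genes near a fold of 100.

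The large subunit genes ran from a fold of 3.61 to 160.4. Over the 42 core large subunit genes with a boundary summit the median fold was 29.9 (23.8 to 39.9). Rpl18 had the highest value, 160.4, from 666 overlapping fragments (95% Poisson interval 616 to 719, counting error only) in a region of 8312 bp with 9 summits. That summit lay 303 bp beyond the 3′ end of Rpl18 but 33 bp from a boundary of Fam83e, and the summit at the annotated start of Rpl18 had a fold of 25.02. Rpl13a, whose protein can also block translation of inflammatory messages when it leaves the ribosome, had a fold of 105.1 from 436 fragments (396 to 479), 307 bp before its start. Rpl15 had 104.6 from 434 fragments, 71 bp from a boundary of Nkiras1 and 221 bp before its own start. Rpl41, which encodes the smallest ribosomal protein, had a fold of 89.0, Rpl27 85.9 and Rpl37 74.8.

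Rpl5 and Rpl11 bind 5S ribosomal RNA and, when ribosome assembly is disturbed, inhibit the p53 regulator MDM2. Both lay in the middle of the range. Rpl5 had a boundary fold of 28.6 from 118 fragments (97.7 to 141) and Rpl11 39.9 from 165 fragments (141 to 192), and these intervals only just overlap. The weakest core large subunit genes by this measure were Rpl22, at 3.61 from 14 fragments, Rpl19 at 9.38 and Rpl37a at 10.6. Rpl37a also had only 2 summits in its whole 50 kb window, the fewest of any core gene.

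The 30 core small subunit genes all had a boundary summit. Their median fold was 32.6 (22.9 to 45.2), which overlaps the interval of the large subunit genes. Rps21 was the strongest member of the family, with a fold of 166.4 from 691 fragments (640 to 744) at position 180257279 of chromosome 2. That summit lay 100 bp before its first annotated start and 1260 bp from the nearest other protein-coding gene. Rps19, which in humans is the gene most often mutated in Diamond-Blackfan anaemia, followed with 143.4 from 595 fragments (548 to 645). That summit lay 473 bp before its start and 6464 bp from any other protein-coding gene. Rps29, which is among the smallest proteins of the small subunit, had 67.8. Rps6, the S6 kinase substrate, had 33.0 from 136 fragments (114 to 161), and Rps14, a small subunit gene lost in the human 5q- syndrome, had 34.6 from 143 fragments. Rps6 and Rps14 thus stood close to the family median, several fold under Rps21 and Rps19. The lowest were Rps2, at 5.29 from 21 fragments, and the X-linked Rps4x, at 7.70 from 31 fragments. All 4 members on chromosome X had a boundary summit, with folds of 7.70 at Rps4x, 23.6 at Rpl36a, 35.8 at Rpl39 and 59.4 at Rpl10.

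**Figure D2:**
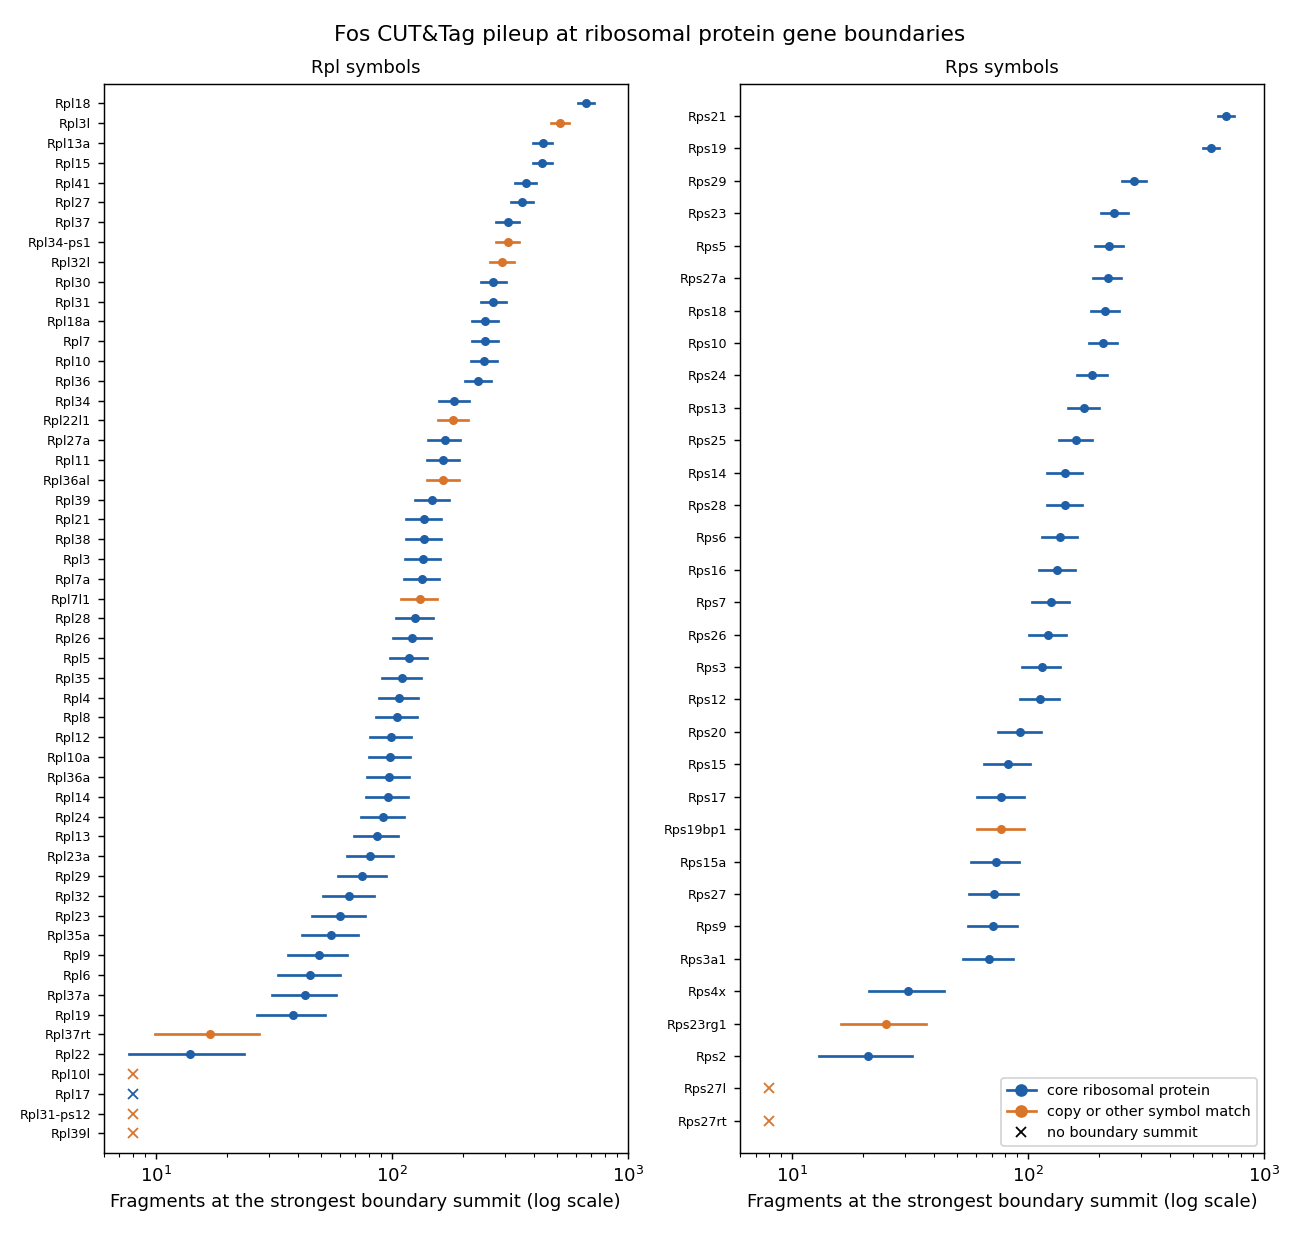
Number of overlapping fragments at the strongest boundary summit (horizontal log axis) for 85 of the 87 genes, by subunit symbol. Bars are 95% Poisson intervals for counting error; crosses, drawn at an arbitrary place at the left, mark the 6 genes with no boundary summit. Most genes fall on a continuous slope, with Rps21, Rpl18 and Rps19 at the top and Rpl22, Rpl37rt and Rps2 at the bottom.

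Genes without a boundary summit were mostly copies. Only 9 of the 14 members outside the core had a boundary summit, and the 5 without were Rps27l, Rps27rt, Rpl10l, Rpl39l and Rpl31-ps12. Rpl10l and Rpl39l are paralogs that serve mainly in male germ cells, and neither had a summit inside the gene. Rpl10l was the only member with 0 summits in its whole window, and Rpl31-ps12 had 1, with 10 fragments. Rps27rt, a retrogene of 374 bp, had 27 summits within 50 kb, of which the strongest (fold 95.7) lay 70 bp from a boundary of Gpd1l. The sole core gene without a boundary summit was Rpl17, which had 5 summits inside the gene, the strongest with a fold of 12.5 at 1576 bp from the nearer end.

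Among copies with a boundary summit the values were spread widely. Rpl3l, a paralog of Rpl3 used in heart and skeletal muscle, had a fold of 124.6, but that summit lay 47 bp from a boundary of Msrb1, and the summit nearest the annotated starts of Rpl3l had a fold of 3.61. Rpl34-ps1 had 74.6. Rpl32l had 71.0, at 866 bp beyond its 3′ end. Rpl22l1, the paralog of Rpl22, had 44.0 from 182 fragments (157 to 210) at 17 bp from its start. Rpl36al had 39.9, with a boundary of Mgat2 at 34 bp. Rpl7l1 had 31.8 and Rps19bp1, whose product binds RPS19 and activates the deacetylase SIRT1, had 18.8. Rps23rg1 and Rpl37rt, named as retroposed copies, had 6.25 and 4.33. Copies share sequence with their parents, and how the authors placed reads that match several loci was not given in the sources used here.

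Several weak or missing boundary summits belonged to genes whose table span runs past the start that the promoter sequences mark. Rps27l, a p53-induced paralog of Rps27, had no summit at its table ends, but a summit of fold 51.96 (215 fragments) lay 30 bp after its annotated start at position 66946086 of chromosome 9, which is inside the span. Rps2 had 5.29 at its table ends and 53.9 (223 fragments) at the annotated start. Rpl22 had 3.61 at its ends and 39.2 (162 fragments) at its inner start, and Rpl19 had 9.38 and 28.9. Counted by annotated starts alone, 62 of 67 members had a summit within 1000 bp, where 62.2% of 17274 protein-coding genes had. The 5 without were Rpl37rt, Rps27rt, Rpl10l, Rpl39l and Rpl31-ps12, all copies. The median start fold was 30.3 (25.02 to 38.5) for members and 29.1 (28.1 to 29.6) for all genes.

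Strong summits at the start of ribosomal protein genes lay close to the start, at a place that depended on the strand. For the 37 members on the plus strand with a start summit, the strongest was a median 31 bp above the start in chromosome coordinates (quartiles -4 and 73 bp). For the 25 on the minus strand it was 129 bp above (104 and 167 bp), and all 25 lay above the start, which on this strand is upstream. The same was seen over all genes, at 19 bp on the plus strand (n = 5420) and 125 bp on the minus strand (n = 5332). The 2 medians over all genes equal a position 53 bp upstream of the start on either strand plus a displacement of 72 bp toward higher coordinates. Any 2 medians can be split in this way by arithmetic. At 614 AP-1 letter matches in promoters with a summit within 500 bp, the strongest such summit was a median 61 bp above the letters (53 to 69). Genes of both strands were pooled for this value. Neither the split nor a cause of such a displacement was tested. Members spread less around their medians than all genes, whose quartiles were -89.3 and 84 bp on the plus strand and 23 and 186 bp on the minus strand.

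**Figure D3:**
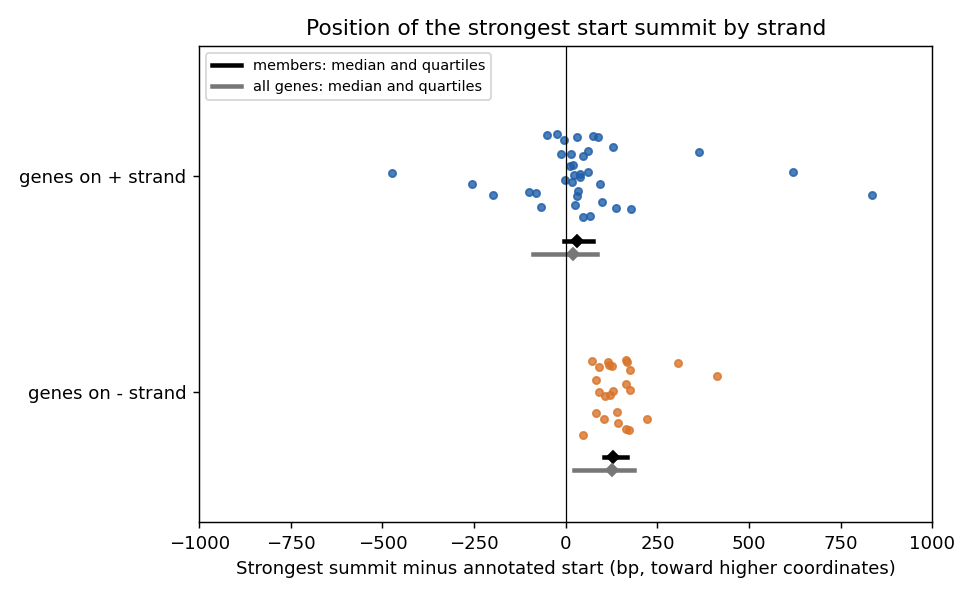
Distance from the annotated start to the strongest summit within 1000 bp, in bp toward higher coordinates (horizontal axis), for 37 members on the plus strand and 25 on the minus strand. Points are genes, spread vertically for legibility; diamonds and bars are medians and quartiles of members (black) and of all genes (grey). All 25 minus-strand points lie right of 0.

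Summits at the 3′ end were also frequent. Counting only summits more than 1000 bp from any annotated start, 28 of 67 members had a summit at the 3′ end, where 16.9% of protein-coding genes and 19.1% of those from 374 to 10000 bp had. At 10 of the 28 the boundary of another protein-coding gene lay within 1000 bp of the strongest such summit. Examples were Rpl18 (Fam83e), Rpl4 (Snapc5) and Rpl41 (Zc3h10), where the 3′ end folds were 160.4, 26.0 and 57.7. At the other 18 no other protein-coding gene was that near. Among these were Rps13, with 22.6 at 77 bp from its 3′ end against 41.6 at its start, and Rpl28, with 16.1 at its 3′ end against 30.3 at its start. The median fold of the strongest 3′ end summit was 7.94, and it exceeded that at the start in 5 of 27 genes. Interior summits were rarer than elsewhere, at 26 of 87 members against 54.2% of protein-coding genes, and by construction the windows of 1000 bp at both ends take up much of a short gene.

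Ownership of a boundary summit was shared in part of the family, and how often this holds over all protein-coding genes was not counted. At 11 of the 81 genes the strongest boundary summit lay nearer to the end of another protein-coding gene, and at 16 such an end lay within 1000 bp. Beside Rpl18, Rpl3l, Rpl15 and Rpl36al these were Rpl4, Rpl36, Rpl37, Rps18, Rps25, Rps27 and Rps28. At Rps28 the summit (fold 34.6) was 72 bp from its own end and 62 bp from that of Ndufa7, a gene of mitochondrial complex I. At Rps18 (51.2) it was 165 bp from its own end and 51 bp from Vps52. Of the 6 members with a fold of at least 100, Rps21, Rps19 and Rpl13a had the nearer boundary themselves.

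Within the gene and 50 kb on either side, members had a median of 22 summits (18 to 26), against 16 (15 to 16) over all protein-coding genes. The 87 windows together held 1979 distinct summits in 1053 regions. Rpl18 had 81, Rps15 63, Rps2 56, Rpl41 55 and Rps21 52. Rps23 had 3, of which 2 were at its boundary with a fold of up to 56.0 and the strongest other had 4.09. Strong boundary signal and a dense neighbourhood were thus found apart as well as together.

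The strongest summit of the window usually lay away from the boundaries of the ribosomal protein gene itself, either inside the gene or in the flanks. It exceeded the boundary fold at 60 of 81 members (74.1%), close to the 74.6% of the 13220 protein-coding genes with both kinds of summit. Near Rpl15 a summit of 293.0 lay 28578 bp below the gene and 139 bp from Nr1d2, which encodes the circadian repressor REV-ERBβ. The summit of 215.5 near Rps25 was 44 bp from Slc37a4, the glucose 6-phosphate transporter gene. That of 194.8 near Rps13 was 21232 bp from the nearest protein-coding gene end, of Plekha7, and that of 177.3 near Rpl41 was 474 bp from Pa2g4. These sites were assigned by distance alone.

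**Figure D4:**
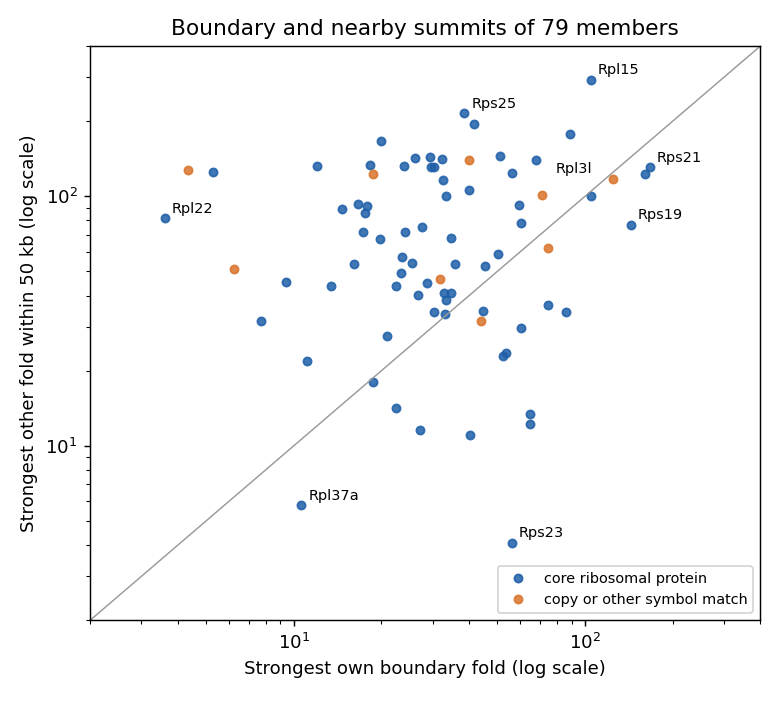
Fold of the strongest own boundary summit (horizontal log axis) against the strongest other summit inside the gene or within 50 kb (vertical log axis) for 79 of the 81 members with a boundary summit. The 58 drawn genes above the diagonal have a stronger summit elsewhere in the window, with Rpl15 highest at 293.0, and Rps23 has no other summit above 4.09.

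Few of the promoters held AP-1 letters. Over 300 bases, from 250 before the start to 50 after, TGANTCA on either strand was found at 2 of 67 members (2.99%, Wilson interval 0.822 to 10.2) and at 8.19% of 17274 protein-coding genes, a share within that interval. Both matches read TGAGTCA and are shown in capitals with 15 bases on each side, at Rpl22 (chr4:152325641-152325677, plus strand) and Rpl9 (chr5:65391525-65391561, minus strand).
Rpl22: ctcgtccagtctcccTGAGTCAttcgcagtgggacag
Rpl9: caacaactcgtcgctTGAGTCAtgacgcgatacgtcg

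The Rpl22 match began 70 bases before its inner start, and the nearest summit, of fold 39.2, was 195 bp away. The Rpl9 match began 115 bases before the start, with a summit of fold 9.62 (39 fragments) 29 bp away. Rps21, Rpl18 and Rps19, with the highest boundary folds of the family, had no such letters in these windows. Of their strongest boundary summits, only that of Rps21 lay inside the window searched. The sequence under the Rpl18 and Rps19 summits was thus not searched. A letter match is a description of the sequence and shows no binding.

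The letters of ETS factors, YY1 and the CRE were each found at a larger share of members than of all genes. CCGGAAG, the core bound by ETS factors, was found at 24 of 67 members (35.8%, 95% Wilson interval 25.4 to 47.8) and 13.1% of genes. Members with it had a median boundary fold of 37.2 against 26.6 without it. Boundary folds in this paragraph were taken at the table ends, which at some genes miss the annotated start searched for letters. No interval was computed for the median folds in this paragraph. AANATGGCG, bound by YY1, was found at 8 of 67 (11.9%, 6.18 to 21.8) and 3.67% of genes. The CRE TGACGTCA was found at 5 of 67 (7.46%, 3.23 to 16.3) and 2.58%, so the lower end of its interval lay near the share of all genes. For the letters that follow, the 95% Wilson interval of the member share included the share of all genes. GGGCGG, bound by SP and KLF factors, was at 56.7% of members (44.8 to 67.9) and 49.8% of genes, TATAAA at 11.9% (6.18 to 21.8) and 14.9%, and the NRF1 motif at 2.99% (0.822 to 10.2) and 1.49%. A start at C followed by at least 4 pyrimidines was annotated at 14 of 67 members (20.9%, 12.9 to 32.1) and 2.70% of genes. The median boundary fold was 33.0 with it and 29.6 without it. This median was also higher with the YY1 letters (34.6 against 29.6), GGGCGG (32.8 against 29.0) and TATAAA (34.6 against 30.3). It was lower with the CRE (29.6 against 30.3), and with the NRF1 motif (17.2 against 31.0) and TGANTCA (7.82 against 31.0), each found at 2 members. Annotated starts were taken as RefSeq gives them, and a start near the end of a tract, as at Rpl31, is not counted.

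Many ribosomal protein genes carry small nucleolar RNA genes, which guide the modification of ribosomal RNA, in their introns. The table placed 55 of them inside 28 members, with 5 in Rpl4 and 4 each in Rpl7a and Rpl13a. Host genes had a median boundary fold of 28.6 and the remaining members 33.1.

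Other genes of the translation machinery showed boundary summits at similar frequency. The 7 ribosomal proteins outside the symbol rule all had a summit, with a median fold of 33.9 and a narrow range from 26.5 at Rack1 to 50.8 at Rplp0, the ribosomal stalk protein. All 30 genes of the translation factor list had a summit. Their median of 56.5 was higher than the 32.2 of ribosomal protein genes, and they ran from 8.66 at Eif3g to 225.9 at both Eif5a and Eif3k. The cap-binding factor gene Eif4e had 217.7 and Eef1a1 163.8. Of 36 genes of ribosome biogenesis and ribosomal RNA synthesis, 35 had a summit (median 41.1), from 4.57 at Mdn1 to 271.1 at Eif6, and the exception was Ubtf. All 16 genes of mTORC1, S6 kinase and Myc control had a summit (median 32.7), from 2.65 at Larp4 to 106.1 at Mlst8. Rps6kb1, which encodes S6 kinase 1, had 62.3 and Myc 31.3. The mitochondrial ribosomal protein genes had a summit at 77 of 78 (median 25.02) and 37 of 40 genes with Psma to Psmd symbols did (median 31.5). The Psm genes encode proteasome subunits except Psmc3ip (20.9), which encodes a meiotic recombination protein. No test of these lists against each other was made. Ownership of the summits was not checked for these lists. Equal values stood at Fau and Mrpl49 (46.4 from 192 fragments) and at Mrpl32 and Psma2 (46.9 from 194), so the same summit may be counted at both genes.

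The labelled tissue was checked against marker genes. Boundary summits were present at 10 of 10 colon epithelium genes (median fold 70.6), from 11.8 at Car1 to 172.9 at Krt8. Vil1 had 157.8 and Epcam 68.8. Leukocyte genes had them at 3 of 10 (Itgam 104.2, Cd68 29.8 and Spi1 13.7), and the Itgam fold exceeded the epithelial median. Stromal, endothelial and muscle genes had them at 2 of 10 (Col1a1 6.98 and Pdgfra 4.33). Ptprc, the pan-leukocyte gene, had 0 summits within 50 kb. The part of other cells in the signal at ribosomal protein genes was not tested.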

How the data were processed

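The submitters' processing notes list Bowtie2, MACS2 and the mm10 build, without versions or commands. How the 4 libraries were combined was not given in the sources used here, and the deposited file was a single narrowPeak list of 178981 summits in 108406 regions. Its fold enrichment is a linear ratio over background by the authors' caller, its deposited −log10 p-value and adjusted −log10 q-value are the caller's statistics, and its deposited score is 10 times the adjusted one. All deposited folds were whole multiples of 0.241 within 7.63e-05 of a step. Read as (pileup + 1) over (background + 1), this step gave a background of 3.16 fragments and the pileup of each summit in fragments. A Poisson −log10 p from it was computed at 167414 of the 178981 summits and matched the deposited value within 0.01 at 100% of these. The remaining summits were not checked in this way. Depth per library is unknown. Intervals on fragments are Poisson intervals for counting error only, and they make no allowance for PCR copies, which are not independent molecules. Intervals on medians are order-statistic intervals over genes, and those on shares are Wilson intervals over genes.

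Gene spans (no strand) and promoters (strand and starts, 67 of 87 members) came from RefSeq tables of GRCm38.p6. Positions are 1-based. Each summit counted as boundary before interior or flank. The scripts used Python 3.11.15, pandas 2.3.3 and scipy 1.17.1 and were tested on simulated data. No chance test was run. The members, lists and alternatives were chosen with earlier results of these data known. Genes named are the 10 strongest and 5 weakest boundaries, all members without one, the 5 richest windows, the 5 strongest other summits, all members outside the core, and Rps6, Rps19, Rpl5, Rpl11 and Rps14. Of the genes this rule gives, 2 are not reported here by name or drawn singly, though counts and medians include them. Other genes named were chosen after their values were seen. Strand offsets, 3′ ends and small nucleolar RNA genes were examined after the data were seen.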

Additional observations from a re-analysis of the deposited data

How the results depend on the processing

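The number of members with a boundary summit (81) ran from 62 of 67 with annotated starts only and 72 of 73 for core genes to 83 with a 2000 bp boundary window, and was 78 at −log10 q of at least 10. Their median boundary fold (32.2) ran from 27.7, without summits nearer another gene, to 33.0. The share of all protein-coding genes with a boundary summit (62.0%) was 57.6% with windows of 500 bp, 66.4% with 2000 bp, 59.1% and 55.6% at −log10 q of at least 5 and 10, 59.4% (59.35 before rounding) with 1 summit per region, 58.8% without regions wider than 3000 bp, 60.2% without summits nearer another gene, and 48.4% among genes up to 10000 bp, an alternative chosen after seeing the data. The median number of summits per window (22) was 17 and 13 at −log10 q of at least 5 and 10, 12 with 1 summit per region, 11 with windows of 20 kb and 39 with 100 kb, which count fewer or more summits by construction. Moving all summits 72 bp toward lower coordinates, also chosen after seeing the data, left 81 members, a median fold of 32.2 and a median of 22 summits.

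No paired analysis was possible because the deposited list has no values per library, and for the same reason no replicate could be left out and recovered and healthy colon were not compared. Members at the limit of detection, such as Rpl22 with 14 fragments and Rpl37rt with 17, have wide counting intervals, and a missing summit means that none was called at this depth. Activity and gene density were not matched in the shares over all genes.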

Other observations

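Pseudogenes of ribosomal protein genes, which are copies without introns scattered over the genome, numbered 309 by symbol. A Fos summit inside or within 1000 bp was found at 34 of them (95% Wilson interval of the share 7.98 to 14.98%) and at 9.61% (9.05 to 10.2) of the 10019 other pseudogenes. Away from protein-coding genes by more than 2000 bp, the shares were 19 of 226 (8.41%, 5.45 to 12.8) and 7.57% (6.99 to 8.19). The median of the strongest fold at these 19 was 5.77. Rpl35a-ps2 had the highest at 31.0, above the 13.5 at the boundary of Rpl35a itself, and Rpl10a-ps1 had 26.9, against 23.8 at Rpl10a. Values were 24.1 at Rpl26-ps5 against 29.6 at Rpl26, 13.95 at Rpl30-ps6 against 64.9 at Rpl30, and 13.7 at Rpl38-ps1 against 33.2 at Rpl38. Pseudogenes and small nucleolar RNA genes were looked at after the data were seen, and the part of misplaced reads in these values was not tested.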
